A study of Mus musculus with 57 samples.

Results

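The diaphragm and the trachea of wild-type (wt) mouse embryos at embryonic day E15.5 were compared, using 8 of the 57 bulk RNA-seq libraries of a study of *Hoxa5* loss: 4 wt diaphragm and 4 wt trachea libraries. All embryos were on the 129/Sv background and were staged from the vaginal plug. Organs were dissected and poly(A)-selected RNA was sequenced from libraries of an Illumina TruSeq kit, so each library averages over every cell type of the dissected piece. The libraries of a group are biological replicates per the labels, and each wt tissue was taken from 4 embryos, as many as its libraries. P-values measure the spread between these samples. The members of the comparison were all genes with a mean TPM, a measure scaled by transcript length and to the same total in each library, of at least 1 in either tissue, which kept 19730 of the 56860 genes of the count table. Another 4 *Hoxa5*-/- diaphragm and 4 *Hoxa5*-/- trachea libraries, from mice homozygous for a *Hoxa5* null allele with a neomycin cassette in the homeobox, gave the same tissue contrast in other embryos.

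The diaphragm is the sheet of skeletal muscle that drives breathing. Its myoblasts migrate from cervical somites, are committed by the MyoD family of transcription factors, fuse into multinucleate fibres and fill those fibres with sarcomeres, while its tendon and connective tissue come from the lateral plate. The trachea is a tube of foregut endoderm, lined by basal, secretory and ciliated cells, and wrapped in mesenchyme that forms C-shaped cartilage rings, smooth muscle and an outer sheath with nerves.

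Total counts ranged from 23163454 to 36992191 in the diaphragm libraries and from 23097464 to 39742853 in the trachea libraries. Pearson correlations of log2(TPM + 1) across the genes tested were 0.970 to 0.986 among the 6 pairs of diaphragm libraries, 0.955 to 0.979 among the 6 pairs of trachea libraries and 0.825 to 0.888 among the 16 pairs of 1 library from each tissue. Genes are not independent replicates, so these values are descriptions. No pair of libraries held identical counts.

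Several libraries carried transcripts of neighbouring organs and stood apart from the others of their tissue. Diaphragm replicate 3 had 4566 TPM of *Alb*, the main plasma protein made by liver, against 836 to 1051 in the other 3 diaphragm libraries. The same library had 322 TPM of *Sftpc*, a surfactant protein of the distal lung, where the other 3 had at most 5.07. Diaphragm replicates 1 and 2 had 73.1 and 99.8 TPM of *Krt13*, a keratin of stratified squamous epithelium such as that of the oesophagus, while replicates 3 and 4 were at 0.0690 and 0.981. Trachea replicate 3 had 350 TPM of *Tg*, the thyroid hormone precursor, and 63.3 TPM of *Pth*, parathyroid hormone, and the other trachea libraries had at most 2.22 and 0. Trachea replicate 1 had 537 TPM of *Mylpf*, the fast skeletal muscle regulatory light chain, where the other 3 had 35.7 to 64.4. All 4 trachea libraries held heart transcripts, described below. Calls that rest on one of these libraries are given below with and without it.

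**Figure D1:**
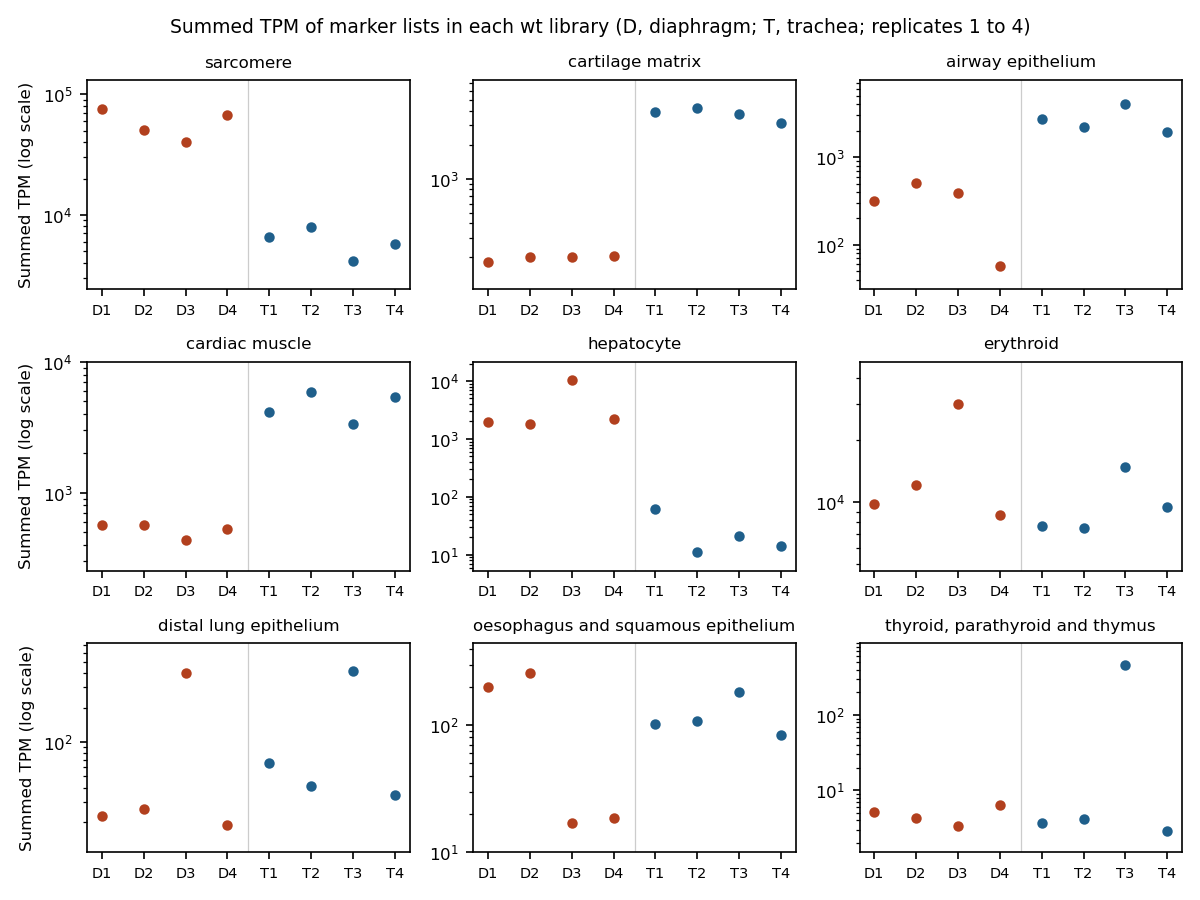
Summed TPM (log scale) of 9 marker lists in each of the 8 wt libraries, diaphragm replicates D1 to D4 and trachea replicates T1 to T4, 1 point per library. Sarcomere and cartilage matrix sums separate the tissues in all libraries, while the hepatocyte sum of D3 (10285 TPM), the distal lung sums of D3 and T3 (398 and 418 TPM) and the thyroid, parathyroid and thymus sum of T3 (468 TPM) lie far above the others of their tissue.

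A gene was called when edgeR's quasi-likelihood test gave an adjusted p under 0.05 and the fold change was at least 1.5. Of the 19730 genes tested, 6412 (32.5%) were called, 2791 (14.1%) higher in the diaphragm and 3621 (18.4%) higher in the trachea. With library totals in place of TMM normalization factors, 7100 genes were called, 2074 higher in the diaphragm and 5026 higher in the trachea. The share of calls that were higher in the diaphragm was therefore 43.5% with TMM factors and 29.2% with library totals, and TMM scaling shifted the median log2 fold change by 0.23 relative to totals. Log2 fold changes below are diaphragm over trachea on the TMM scale, with a standard error (SE). The SE was derived as the absolute log2 fold change divided by the square root of the test's F statistic, and is approximate. The median over all genes tested was -0.04. TPM values are on a different scale, fixed within each library, so a ratio of TPM values can differ from the fitted fold change.

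A fold change of at least 8 was reached by 1437 called genes (7.28% of those tested), 644 higher in the diaphragm and 793 higher in the trachea. The 644 genes held 6.56 to 9.47% of all TPM in the diaphragm libraries and 0.233 to 0.449% in the trachea libraries. The 793 genes held 2.15 to 4.73% of all TPM in the trachea and 0.0653 to 0.143% in the diaphragm. Protein-coding genes were called in 5045 of 15025 cases (33.6%) and long noncoding RNAs in 901 of 2433 (37.0%). By TPM, 10651 genes (54.0%) had no overlap between the 4 diaphragm and the 4 trachea values.

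**Figure D2:**
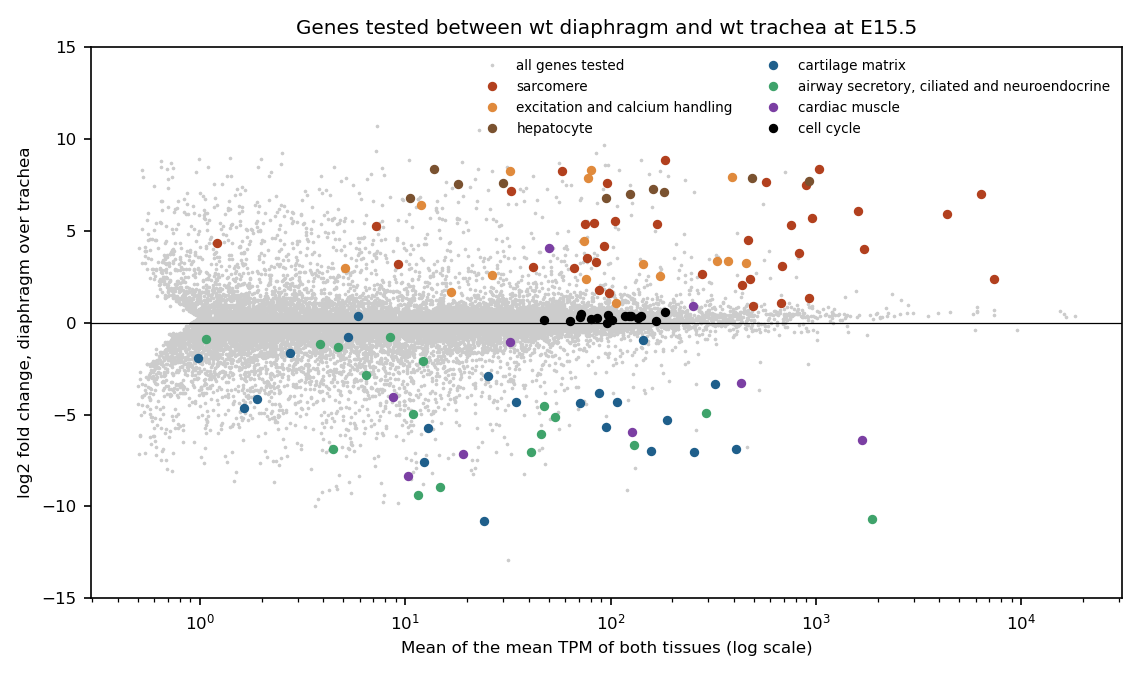
Log2 fold change, diaphragm over trachea, against the mean TPM of both tissues (log scale), 1 point per gene tested, with the genes of 7 lists in colour. Sarcomere, excitation and hepatocyte genes lie above 0, cartilage matrix and airway secretory and ciliated genes below it except 1 cartilage gene that was not called (*Prg4*, 0.36), cardiac genes on both sides, and the 16 cell cycle genes close to 0.

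The genes were described by 32 lists of cell types, pathways and gene families. Of the list genes, 296 were called in at least 1 list. When each of the 8 libraries was left out in turn, 263 of these 296 genes were called every time and 33 lost the call without at least 1 library.

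**Figure D3:**
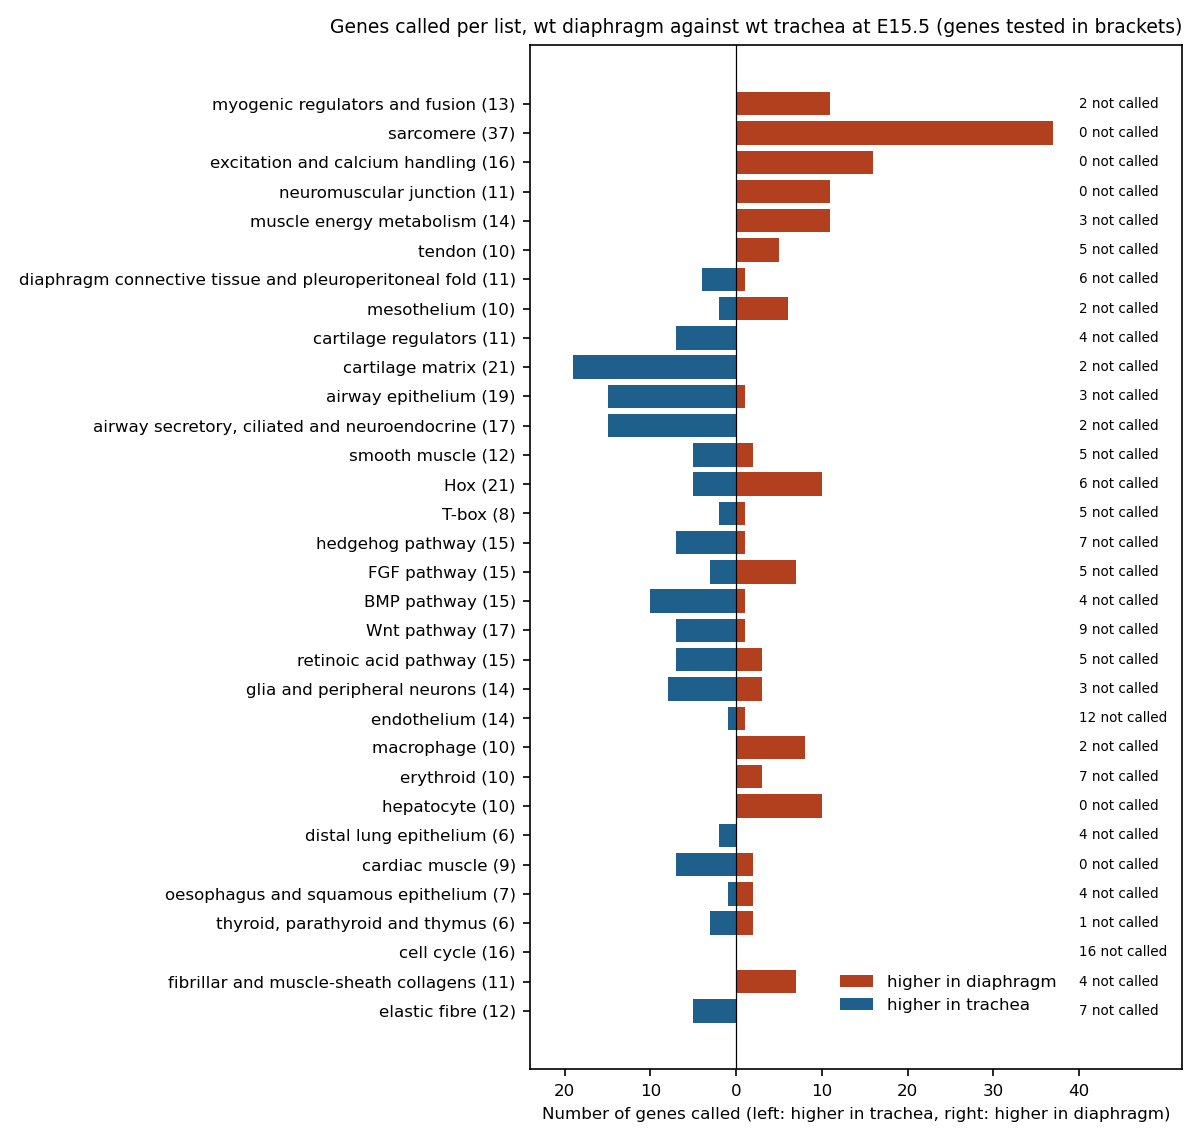
Number of genes of each list that were called higher in wt trachea (left bars) and higher in wt diaphragm (right bars), with the genes tested in brackets and those not called at the right. The 5 muscle lists at the top hold only calls higher in diaphragm, and the cartilage and airway secretory and ciliated lists only calls higher in trachea.

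Regulators of myogenesis and myoblast fusion were higher in the diaphragm. Of 13 genes tested, 11 were called higher in the diaphragm, none higher in the trachea and 2 were not called, with a median log2 fold change of 6.59 against -0.04 over all genes. *Myog*, the factor that drives terminal differentiation of myoblasts, had 1364, 1556, 1270 and 1475 TPM in diaphragm replicates 1 to 4 and 8.80, 6.35, 2.03 and 7.40 TPM in trachea replicates 1 to 4. The groups did not overlap, and the log2 fold change was 8.19 (SE 0.39, adjusted p = 1.47e-06, edgeR). *Myod1*, the founding member of the family, averaged 345 ± 45.0 TPM (SD, n = 4) in the diaphragm and 1.43 ± 0.847 TPM in the trachea. *Myf6* and *Myf5*, the remaining MyoD family genes, averaged 187 ± 53.5 and 34.9 ± 4.98 TPM in the diaphragm and 0.687 ± 0.931 and 0.833 ± 0.229 TPM in the trachea. The order of the 4 genes in the diaphragm was thus *Myog*, *Myod1*, *Myf6* and *Myf5*, with no overlap between neighbours in that order.

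Genes of the earlier precursor states were below *Myog*, *Myod1* and *Myf6* in level in the diaphragm. *Pax7*, which marks muscle stem and progenitor cells, had 31.4 to 42.5 TPM in the diaphragm and 0.315 to 0.627 TPM in the trachea, a log2 fold change of 6.59 (SE 0.21, adjusted p = 2.43e-07, edgeR). *Pax3*, the related factor of migrating limb and diaphragm precursors, had 4.39 to 5.47 TPM in the diaphragm. *Lbx1*, a homeobox gene of migrating muscle precursors, averaged 37.8 ± 2.27 TPM in the diaphragm and 0.102 ± 0.109 TPM in the trachea. Both membrane proteins that fuse myoblasts were also abundant: *Mymk* had 327 to 413 TPM and *Mymx* 175 to 227 TPM in the diaphragm, against 1.11 to 3.24 and 0.0925 to 1.07 TPM in the trachea.

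The genes that did not separate the organs were *Six4* and *Met*. *Six4* had a log2 fold change of -0.14 (adjusted p = 0.158, edgeR), although its TPM values, 9.18 to 11.5 in the diaphragm and 13.7 to 14.3 in the trachea, did not overlap. *Met*, the receptor needed for delamination of migrating precursors and also used by many epithelia, averaged 29.3 ± 2.30 TPM in the diaphragm and 26.5 ± 7.69 TPM in the trachea (log2 fold change 0.44, adjusted p = 0.0764).

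The bases just before the start of 4 of the diaphragm genes are printed because the E-box CAGCTG, a sequence bound by MyoD family proteins, lies in them. For each of the regulator, sarcomere, excitation and synapse lists, the member of highest mean diaphragm TPM with CAGCTG in the 250 bases before the annotated start was taken, a choice made after the values were seen. Sequences are from GRCm39, run 5′ to 3′ on the strand of the gene and end at the base before the start in the authors' annotation; capitals mark matches on either strand to CAGCTG, to the TATA motif TATAAA, to the CArG box of serum response factor or the MEF2 site.
Mymk (chr2:26962192-26962441, minus strand): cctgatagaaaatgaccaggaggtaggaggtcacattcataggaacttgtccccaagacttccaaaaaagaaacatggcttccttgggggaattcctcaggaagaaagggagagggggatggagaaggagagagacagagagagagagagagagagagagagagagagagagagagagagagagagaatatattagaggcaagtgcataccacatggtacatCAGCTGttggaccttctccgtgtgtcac
Acta1 (chr8:124621491-124621740, minus strand): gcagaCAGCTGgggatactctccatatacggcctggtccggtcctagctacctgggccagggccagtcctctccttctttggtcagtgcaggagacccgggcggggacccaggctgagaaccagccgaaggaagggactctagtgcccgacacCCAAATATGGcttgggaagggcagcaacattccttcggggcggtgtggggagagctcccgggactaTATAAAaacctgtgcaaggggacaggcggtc
Casq2 (chr3:101993612-101993861, plus strand): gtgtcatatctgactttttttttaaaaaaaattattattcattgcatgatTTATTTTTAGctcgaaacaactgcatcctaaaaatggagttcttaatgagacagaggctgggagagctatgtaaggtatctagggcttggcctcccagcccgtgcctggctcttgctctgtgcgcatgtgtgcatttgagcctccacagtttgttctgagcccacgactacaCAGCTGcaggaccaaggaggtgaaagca
Chrng (chr1:87133283-87133532, plus strand): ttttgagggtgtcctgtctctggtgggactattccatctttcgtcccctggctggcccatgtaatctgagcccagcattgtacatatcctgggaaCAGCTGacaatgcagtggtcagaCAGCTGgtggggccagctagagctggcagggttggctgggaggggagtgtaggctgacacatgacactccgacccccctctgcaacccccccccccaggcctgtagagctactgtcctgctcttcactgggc

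In *Mymk* the E-box starts 28 bases before the start site. *Acta1*, skeletal muscle actin, has the E-box at -245, a CArG box at -97 and TATAAA at -31. *Casq2* has a MEF2 site at -200 and the E-box at -28, and *Chrng* has the E-box at -155 and at -132. Over windows of 300 bases (250 before the start and 50 from it), CAGCTG was present in 3365 of 21772 protein-coding promoters and absent from the other 84.5%. It was present in 5 of 13 windows of the myogenic list (38.5%), 11 of 37 of the sarcomere list (29.7%), 10 of 16 of the excitation list (62.5%) and 5 of 11 of the neuromuscular junction list (45.5%). A CArG box was found in 6 of the 37 sarcomere windows (16.2%) against 1.46% of all promoters, and a MEF2 site in 5 of them (13.5%) against 2.74%. Cartilage matrix genes had CAGCTG in 6 of 21 windows (28.6%) and airway secretory and ciliated genes in 4 of 19 (21.1%), with no CArG box in either list. CAGCTG is its own reverse complement, and a MEF2 site can overlap TATAAA. A match of letters is a description of the window, and no binding was measured.

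**Figure D4:**
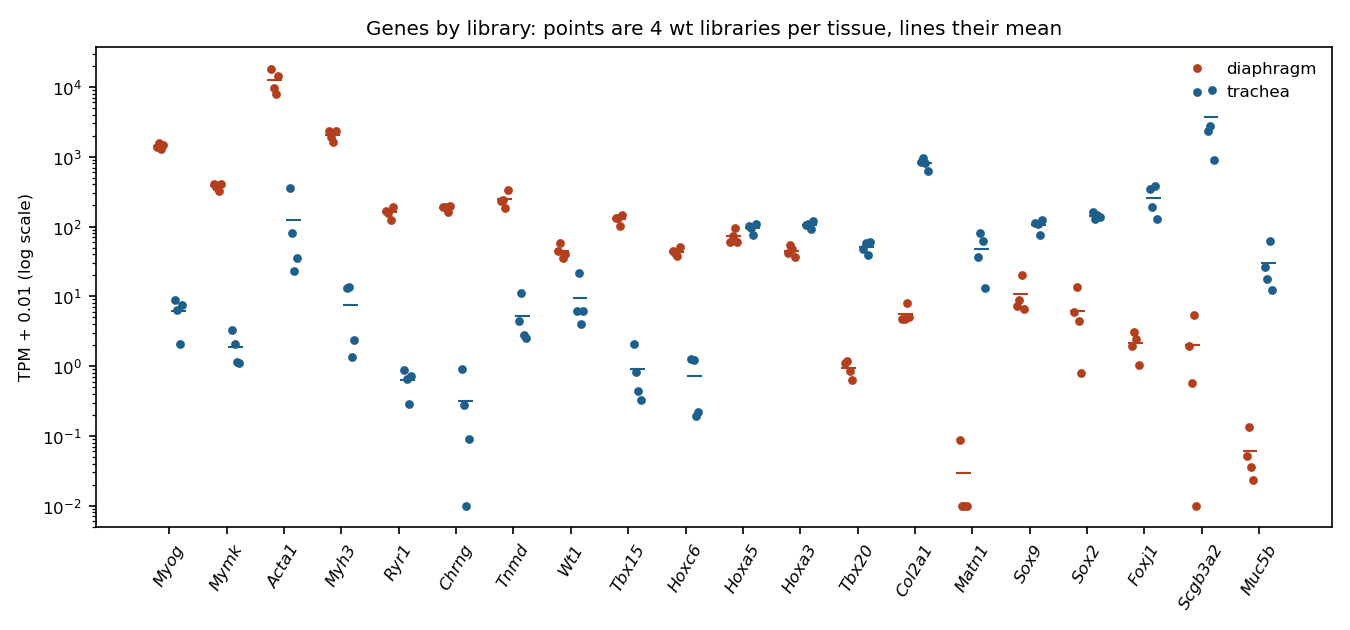
TPM + 0.01 (log scale) of 20 genes in each wt library, points for the 4 diaphragm and the 4 trachea libraries and lines for their means. The muscle genes at the left and the cartilage and airway genes at the right separate the organs without overlap, whereas the *Hoxa5* values of the tissues overlap (60.1 to 94.7 and 76.3 to 109 TPM).

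All 37 sarcomere genes tested were called higher in the diaphragm, with a median log2 fold change of 4.33. Their summed level was 40464 to 75719 TPM in the diaphragm libraries and 4169 to 7915 TPM in the trachea libraries. *Acta1* alone had 18193, 9706, 7827 and 14568 TPM in diaphragm replicates 1 to 4 and 357, 81.2, 23.1 and 35.7 TPM in trachea replicates 1 to 4. The highest trachea value was that of replicate 1, and the groups were far from overlapping (log2 fold change 6.98, SE 1.0, adjusted p = 0.000468, edgeR). Without trachea replicate 1 or any other single library the log2 fold change was between 6.63 and 8.39. The *Tnnc2* call rests on few reads, 58 counts over the diaphragm libraries and 3 over the trachea libraries. In the annotation 74.0% of its exon bases are shared with *Ube2c* on the opposite strand, so its reads may not all have been counted to it.

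Among myosin heavy chains, the developmental isoforms dominated the diaphragm. *Myh3*, the embryonic heavy chain, made up 50.1 ± 4.88% (SD, n = 4) of the summed TPM of 6 skeletal myosin heavy chain genes, and *Myh8*, the perinatal one, made up 41.9 ± 4.73%. The slow chain *Myh7* followed with 3.38 ± 0.334%. The adult fast chains were lowest, with 2.72 ± 0.375% for *Myh4* (IIB), 1.52 ± 0.193% for *Myh2* (IIA) and 0.350 ± 0.113% for *Myh1* (IIX). The ranges of *Myh3* (45.3 to 55.4%) and *Myh8* (37.0 to 46.5%) overlapped, although *Myh8* exceeded *Myh3* only in replicate 1.

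Some, but not all, sarcomere genes that the heart also uses had small differences between the organs. The genes *Myl4*, *Tpm1*, *Tnnc1* and *Myom1* had log2 fold changes of 0.91, 1.07, 1.34 and 1.59. *Myl4*, the embryonic and atrial essential light chain, had 480 to 663 TPM in the diaphragm and 251 to 559 TPM in the trachea, so its groups overlapped. *Actc1*, cardiac actin, which embryonic skeletal muscle also makes, averaged 11893 ± 2322 TPM in the diaphragm and 2821 ± 831 TPM in the trachea (log2 fold change 2.38, SE 0.24). Other sarcomere genes that the heart also uses differed more than *Myom1*. Over fits that each left out 1 library, the log2 fold changes of *Myl3* and *Actn2* were 5.30 to 5.63 and 3.63 to 3.97. Those of *Myh7* and *Ttn* were 3.39 to 3.77 and 2.76 to 3.17. With all 8 libraries, *Mybph*, *Myh3* and *Neb* had log2 fold changes of 8.83, 8.38 and 7.62. The grouping by use in heart was made after the values were seen and was not tested.

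Excitation-contraction coupling genes were called higher in the diaphragm in 16 of 16 cases, with a median log2 fold change of 3.28. *Ryr1*, the calcium release channel of skeletal muscle, averaged 160 ± 28 TPM in the diaphragm and 0.628 ± 0.251 TPM in the trachea (log2 fold change 8.32, SE 0.38, adjusted p = 1.12e-06, edgeR). Its partner *Cacna1s*, the voltage sensor, averaged 64.8 ± 12 and 0.275 ± 0.151 TPM. *Atp2a1*, the fast fibre calcium pump, averaged 773 ± 244 and 4.03 ± 3.47 TPM. *Casq2*, the cardiac and slow calsequestrin, averaged 809 ± 214 TPM in the diaphragm, above the 285 ± 125 TPM of *Casq1*, the fast one; the ranges were 565 to 997 and 155 to 423 TPM. In the trachea, *Casq2* and *Casq1* averaged 106 ± 37.7 and 61.7 ± 30.1 TPM. *Jph2* and *Trdn* overlapped between the organs in TPM, with log2 fold changes of 1.05 and 1.68. The *Trdn* call (adjusted p = 0.0385) was lost without diaphragm replicate 1 or 4 or trachea replicate 3 or 4.

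The neuromuscular junction list was called in full, 11 of 11 higher in the diaphragm, with a median log2 fold change of 3.57 and a summed level of 751 to 947 TPM against 70.1 to 75.9 TPM. The fetal subunit gene of the acetylcholine receptor was far above the adult one. *Chrng*, the fetal gamma subunit, had 190, 191, 160 and 197 TPM in diaphragm replicates 1 to 4, whereas *Chrne*, the adult epsilon subunit, had 1.28, 1.15, 0.669 and 2.11 TPM. The trachea libraries had at most 0.882 TPM of *Chrng* and 0.634 TPM of *Chrne*. The subunits common to both forms, *Chrnb1*, *Chrnd* and *Chrna1*, averaged 176 ± 22.9, 112 ± 14.3 and 74.4 ± 9.11 TPM in the diaphragm. *Musk*, *Dok7* and *Rapsn*, which gather receptors beneath the nerve ending, had log2 fold changes of 5.21, 2.63 and 4.97. *Lrp4*, the agrin receptor, was nearest to equal, with 31.7 to 36.2 TPM in the diaphragm and 20.6 to 25.8 TPM in the trachea (log2 fold change 0.84, SE 0.08, adjusted p = 6.16e-05, edgeR).

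Muscle energy metabolism was higher in the diaphragm in 11 of 14 genes, and the other 3 were not called. *Pgam2* and *Eno3*, the muscle forms of phosphoglycerate mutase and enolase, averaged 1300 ± 406 and 1472 ± 553 TPM in the diaphragm and 293 ± 79.5 and 157 ± 34.6 TPM in the trachea. *Ckm*, muscle creatine kinase, averaged 1090 ± 495 and 90.3 ± 20.5 TPM. The genes not called were *Cox7a1*, *Fabp3* and *Ppargc1a*, with log2 fold changes of -0.01, 0.67 and -0.40. The *Slc25a4* call (log2 fold change 0.72) was lost without diaphragm replicate 1.

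For 14 pairs of a muscle-type gene and a partner, the share of the muscle-type gene in the summed TPM of the pair was compared between the organs. The test was an exact two-sided permutation test, whose smallest p for 4 against 4 libraries is 0.0286. The partner was a more widely used gene, except in the troponin pairs. In those pairs (*Tnni2* with *Tnni1*, *Tnnc2* with *Tnnc1* and *Tnnt3* with *Tnnt1*) both genes belong to the sarcomere list, and the share is that of the first. The share was higher in all diaphragm libraries than in all trachea libraries for 11 pairs, the *Tnni2* and *Tnnc2* pairs among them. Each of these 11 had that smallest p (0.0364 after Benjamini-Hochberg adjustment over the 14 pairs). *Acta1* made up 89.0 ± 4.62% of *Acta1* and *Actb* in the diaphragm and 7.20 ± 8.02% in the trachea. *Pygm* made up 88.6 ± 4.04% and 22.6 ± 3.58% of *Pygm* and *Pygb*. *Ckm* made up 88.0 ± 5.17% and 45.9 ± 2.17% of *Ckm* and *Ckb*. *Pgam2* was the larger member in both organs, with 66.6 ± 8.55% in the trachea and 92.1 ± 3.57% in the diaphragm. The shares of *Tnnt3*, *Cox7a1* and *Slc25a4* overlapped between the organs, with adjusted p of 0.100, 0.185 and 0.400 by the exact permutation test. For *Tnnt3* the overlap came from trachea replicate 1, at 73.8% where the other 3 trachea libraries had 21.8 to 41.6%. *Tnni2* had 44.3% in the same library and 4.31 to 12% in the others.

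Outside the lists, the genes of highest diaphragm level called at 8-fold or more without overlap were *Tceal7*, *Peg10*, *Itgb1bp2*, *Apobec2*, *Bin1*, *Arhgap36*, *Atp1b4*, *Nes*, *Klhl41* and *Cav3*. *Tceal7* averaged 1092 ± 302 TPM in the diaphragm and 15.3 ± 12 TPM in the trachea. *Peg10*, an imprinted gene derived from a retrotransposon, averaged 1001 ± 126 and 117 ± 28.5 TPM. *Cav3* and *Bin1*, which shape the muscle membrane and its tubules, averaged 421 ± 105 and 543 ± 92.3 TPM in the diaphragm. Of the 10 genes of largest fold among those with at least 20 TPM, *Dbx1*, a homeobox gene best known from the spinal cord and hindbrain, had 42.0, 47.8, 41.6 and 51.8 TPM in the diaphragm and 2 counts in all trachea libraries together. *Lincmd1*, a long noncoding RNA of differentiating muscle, averaged 170 ± 34.4 TPM and 0.356 ± 0.321 TPM. *Vgll2* and *Cdh15* (M-cadherin) had log2 fold changes of 8.86 and 8.29. *Lrtm1*, *Gjd4*, *Ripply1* and *Cacng6* had log2 fold changes of 7.99 to 8.87. The 10 also included *Gc* and *Serpina6*, which encode plasma proteins made by the liver and had their highest values, 101 and 799 TPM, in diaphragm replicate 3.

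Tendon genes were called higher in the diaphragm in 5 of 10 cases and the other 5 were not called. *Tnmd*, the tendon marker tenomodulin, had 232, 241, 184 and 332 TPM in the diaphragm and 4.41, 11, 2.81 and 2.48 TPM in the trachea. *Scx*, the scleraxis factor of tendon progenitors, differed less (41.3 ± 0.923 and 16.3 ± 1.13 TPM, log2 fold change 1.64, SE 0.09, adjusted p = 2.55e-06, edgeR). *Kera* and *Fmod*, small proteoglycans of the tendon matrix, had log2 fold changes of 4.63 and 1.96. The call of *Thbs4* (0.63) was lost without diaphragm replicate 4 or trachea replicate 2. *Col1a1* and *Col1a2*, the type I collagen genes, averaged 4221 ± 528 and 1609 ± 205 TPM in the diaphragm and 3645 ± 391 and 1576 ± 124 TPM in the trachea, and neither was called.

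Among collagens of fibrils and of the sheaths around muscle fibres, 7 of 11 were called higher in the diaphragm and 4 were not called. With library totals the count was 3. *Col14a1* and *Col12a1*, fibril-associated collagens, had the largest log2 fold changes, 1.48 (SE 0.14) and 1.18 (SE 0.12). *Col6a1*, *Col6a2*, *Col5a1*, *Col15a1* and *Col4a1* had log2 fold changes of 0.63 to 0.90. The call of *Col15a1* was lost without diaphragm replicate 1, and that of *Col4a1* without diaphragm replicate 1 or trachea replicate 4.

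Genes of the diaphragm connective tissue and of the pleuroperitoneal folds, the paired folds that carry its connective tissue precursors, did not as a list favour the diaphragm. Of 11 tested, 1 was called higher in the diaphragm, 4 higher in the trachea and 6 were not called, with a median log2 fold change of -0.54. *Gata4*, a zinc finger factor of these folds, was higher in the diaphragm, with 63.7 to 78.6 TPM against 24 to 71.2 TPM and an overlap of the groups (log2 fold change 0.91, adjusted p = 0.0197, edgeR), a call lost without trachea replicate 1. The 4 genes higher in the trachea were *Osr2*, *Nr2f2*, *Tcf21* and *Tbx5*, with log2 fold changes of -2.11, -1.01, -1.68 and -2.53. *Tbx5* also acts in lung and tracheal mesenchyme, and all trachea libraries held heart transcripts. The part of such tissue in the trachea levels of this list was not tested. *Osr1*, *Pdgfra*, *Tcf7l2*, *Zfpm2*, *Gata6* and *Lox* were not called. In bulk tissue, fewer cells of a type and less RNA per cell cannot be told apart, here and in the lists that follow.

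Mesothelial genes divided. *Wt1*, *Lrrn4*, *Bnc1*, *Upk3b*, *Gpm6a* and *Aldh1a2* were called higher in the diaphragm, *Msln* and *Krt19* higher in the trachea, and *Upk1b* and *Rspo1* were not called. *Wt1*, a zinc finger factor of mesothelium, had 44.7, 57.3, 35.4 and 40.2 TPM in the diaphragm and 6.13, 21.3, 4.0 and 6.12 TPM in the trachea. Trachea replicate 2 was the highest of its group for *Wt1* and also for *Lrrn4* (40.3 TPM against 5.82 to 13.6) and *Upk3b* (95.4 against 14.3 to 31.1). The calls of *Bnc1*, *Upk3b* and *Aldh1a2* were each lost without some single libraries, leaving as few as 3 genes of the list called higher in the diaphragm, while *Msln* and *Krt19* were called higher in the trachea each time. *Krt19*, which simple epithelia also make, averaged 64.4 ± 29.8 TPM in the diaphragm and 988 ± 488 TPM in the trachea.

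Cartilage genes were higher in the trachea. Of the 21 cartilage matrix genes tested, 19 were called higher in the trachea and 2 (*Comp* and *Prg4*) were not called, with a median log2 fold change of -4.30. Their summed TPM was 183 to 207 in the diaphragm and 3081 to 4247 in the trachea. *Col2a1*, the major fibrillar collagen of cartilage, had 4.71, 4.74, 8.04 and 5.09 TPM in diaphragm replicates 1 to 4 and 836, 959, 824 and 633 TPM in trachea replicates 1 to 4. The groups were far apart (log2 fold change -6.88, SE 0.24, adjusted p = 4.56e-07, edgeR). *Matn1*, matrilin 1, had 13.3 to 80.7 TPM in the trachea and 1 count in the 4 diaphragm libraries together. *Cytl1*, a secreted protein of chondrocytes, averaged 507 ± 77.7 TPM in the trachea and 3.21 ± 2.58 TPM in the diaphragm. *Acan*, the proteoglycan aggrecan, averaged 136 ± 19.3 and 5.38 ± 2.13 TPM, and *Cnmd*, chondromodulin, 188 ± 33.9 and 3.02 ± 1.33 TPM.

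Type IX and type XI collagen genes, whose products are built into the same fibrils as type II, did not separate the organs equally. *Col9a1* and *Col9a3* had log2 fold changes of -6.98 and -5.30, and *Col9a2* one of -3.33 with 46.5 to 54.3 TPM in the diaphragm. *Col11a2* had a log2 fold change of -4.30 and *Col11a1*, which other connective tissues also use, one of -0.94 (SE 0.11, adjusted p = 0.000140, edgeR). *Col10a1*, of hypertrophic chondrocytes, was low in the trachea, with 6.55, 1.17, 2.03 and 3.05 TPM. The call of *Epyc* (-0.76) was lost without diaphragm replicate 1, 3 or 4 or trachea replicate 2 or 3.

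Of 11 regulators of cartilage, 7 were called higher in the trachea, none higher in the diaphragm, and the median log2 fold change was -2.55. *Sox9*, which commits cells to cartilage and also acts in airway epithelium, had 114, 110, 74.7 and 124 TPM in the trachea and 7.20, 8.86, 19.9 and 6.53 TPM in the diaphragm. Diaphragm replicate 3, the library with lung transcripts, held the highest diaphragm value. Its partner *Sox5* was called (-2.69, SE 0.18), while *Sox6*, which muscle also uses, was not (0.43, adjusted p = 0.00779, below the fold minimum). *Fgfr3*, *Runx3*, *Pthlh*, *Gdf5* and *Runx2* were called with log2 fold changes of -3.72, -3.41, -3.14, -2.55 and -2.26. *Ihh*, the ligand of maturing chondrocytes, was near 1 TPM in both organs and was not called.

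The airway epithelium list had 15 of 19 genes called higher in the trachea, 1 (*Krt14*) higher in the diaphragm and 3 not called. *Sox2*, a determinant of the proximal airway, had 164, 128, 145 and 135 TPM in the trachea and 6.0, 13.4, 4.40 and 0.772 TPM in the diaphragm. The groups did not overlap (log2 fold change -4.27, SE 0.60, adjusted p = 0.000407, edgeR). *Nkx2-1*, which specifies the respiratory endoderm, had 88.8 to 146 TPM in the trachea and 0.489, 0.642, 57.1 and 0.0698 TPM in the diaphragm. With diaphragm replicate 3 included, *Nkx2-1* was not called (-2.69, adjusted p = 0.132, edgeR). Without replicate 3 of both tissues its log2 fold change was -7.73 (adjusted p = 3.20e-06), a choice of libraries made after the data were seen.

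Diaphragm replicate 3 also had the highest diaphragm level of epithelial adhesion genes. *Epcam* and *Cdh1*, adhesion molecules of epithelia, had 57.2 and 42.5 TPM in that library and at most 16.1 and 16.2 TPM in the other diaphragm libraries, while the trachea had 243 to 342 and 210 to 353 TPM. *Foxa1* averaged 147 ± 19.9 TPM in the trachea and 5.70 ± 7.21 TPM in the diaphragm, and *Krt18* 352 ± 131 and 32.6 ± 27.2 TPM. The basal cell genes did not separate the organs in the same way. *Krt5* had 46.2, 75.6, 0.229 and 1.04 TPM in the diaphragm and 11.6 to 92.8 TPM in the trachea, and *Krt15* had 142, 261, 2.85 and 6.06 TPM against 103 to 885 TPM. Diaphragm replicates 1 and 2 were high for both keratins, and neither gene was called. The calls of *Trp63* (-0.59) and *Krt14* (1.41) were each lost without some single libraries.

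Of 17 secretory, ciliated and neuroendocrine genes tested, 15 were called higher in the trachea and none higher in the diaphragm, with a median log2 fold change of -4.95. *Scgb3a2*, a secretoglobin of airway secretory cells, had 2336, 2744, 8999 and 911 TPM in trachea replicates 1 to 4 and at most 5.43 TPM in the diaphragm. Replicate 3 was far above the other 3 trachea libraries, and the groups did not overlap (log2 fold change -10.67, SE 1.12, adjusted p = 8.82e-05, edgeR). *Scgb1a1*, the later club cell secretoglobin, was low, with 6.11, 3.58, 82.0 and 1.06 TPM in the trachea and no count in the diaphragm. It was at least 99.2-fold higher in the trachea against a floor of 3 counts over the group, and its call was lost without any 1 diaphragm library. *Muc5b*, a gel-forming mucin, averaged 29.6 ± 22.4 TPM in the trachea and 0.0504 ± 0.0491 TPM in the diaphragm.

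*Foxj1*, the regulator of motile ciliated cells, had 340, 192, 375 and 129 TPM in the trachea and 1.02 to 3.06 TPM in the diaphragm (log2 fold change -6.67, SE 0.47, adjusted p = 9.99e-06, edgeR). *Mcidas* and *Ccno*, which act when multiciliated cells form their many centrioles, averaged 81.3 ± 29.7 and 90.5 ± 28.5 TPM in the trachea. *Tekt1* and *Rsph1*, parts of the ciliary axoneme, averaged 91.4 ± 62.5 and 105 ± 82.7 TPM. *Dnai1* (-0.76, adjusted p = 0.379) and *Insm1* (-0.88, adjusted p = 0.150) were not called.

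Outside the lists, the genes of highest trachea level called at 8-fold or more without overlap were *Cbr2*, *Wfdc2*, *Lypd2*, *Aldh1a7*, *Lrrc23*, *Dynlrb2*, *Wwp2*, *Wif1*, *Cldn3* and *AU021092*. *Cbr2*, a carbonyl reductase, had 439, 553, 2467 and 202 TPM in trachea replicates 1 to 4, so replicate 3 was more than the others together. *Wif1*, a secreted Wnt inhibitor, varied far less, with 234 ± 30.9 TPM in the trachea and 10.4 ± 1.92 TPM in the diaphragm (log2 fold change -4.19, SE 0.17). *Wwp2*, a ubiquitin ligase whose gene hosts a microRNA of cartilage, averaged 241 ± 32.4 and 17.1 ± 1.65 TPM.

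Of the 10 largest folds towards the trachea at 20 TPM or more, *Reg3g*, a secreted lectin with antibacterial activity, had 33.0, 46.1, 157 and 16.3 TPM in the trachea and no count in the diaphragm, which is at least 1197-fold higher. *Dynlrb2*, *Cfap65*, *Ttll6* and *Dnai3*, genes of cilia or their motors, had log2 fold changes of -9.11, -8.23, -8.17 and -8.01. *Hoatz* had 6.03 to 54.9 TPM in the trachea and 1 count in the diaphragm, and *Nme9* 3.94 to 56.2 TPM and 3 counts. *Sec14l3* had a log2 fold change of -8.25. *Otx1*, a homeobox gene best known from the forebrain, had 21.3 ± 2.07 TPM in the trachea and at most 0.0569 TPM in the diaphragm. *Muc5ac*, the goblet cell mucin, averaged 22.5 ± 5.47 and 0.0777 ± 0.0506 TPM.

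Smooth muscle genes were divided between the organs. Of 12 tested, 5 were called higher in the trachea, 2 higher in the diaphragm and 5 were not called. *Acta2*, smooth muscle actin, had 1031 to 1421 TPM in the diaphragm and 835 to 1385 TPM in the trachea and was not called. *Cnn1*, *Mylk* and *Myocd*, a calponin, the myosin light chain kinase and the master cofactor of the smooth muscle programme, were called higher in the trachea with log2 fold changes of -1.69, -1.12 and -1.98, as was *Kcnmb1* (-2.58). *Smtn* and *Synpo2*, which striated muscle also uses, went the other way with log2 fold changes of 1.54 and 1.26. *Myh11* had 96.4, 156, 39.1 and 53.5 TPM in the diaphragm and 135 to 287 TPM in the trachea (-0.98, adjusted p = 0.0831, edgeR). The low level of *Tagln* (2.02 to 4.77 TPM over both organs) is uncertain, since 67.9% of its exon bases are shared with other genes. The *Pln* call rests on trachea replicate 2 (9.92 TPM, others 0.344 to 1.22), was also lost without any 1 diaphragm library, and 64.7% of its exon bases are shared.

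Elastic fibre genes were called higher in the trachea in 5 of 12 cases and none was called higher in the diaphragm. With library totals the count was 8. *Eln*, elastin, had 1839, 1468, 1324 and 1665 TPM in the trachea and 429, 197, 238 and 199 TPM in the diaphragm (log2 fold change -2.25, SE 0.28, adjusted p = 0.000211, edgeR). *Fbln5*, *Ltbp4*, *Fbln1* and *Fbln2*, which help to assemble the fibres, had log2 fold changes of -1.60, -0.88, -0.85 and -0.71. The *Fbln2* call was lost without diaphragm replicate 3.

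Hox genes, which give regional identity along the body axis and lie in 4 clusters ordered from 3′ (low numbers) to 5′ (high numbers), divided by number. Of 39 genes, 21 were tested: 10 were called higher in the diaphragm, 5 higher in the trachea and 6 were not called. Of the 5 tested genes numbered 1 to 3, 4 were called higher in the trachea and none in the diaphragm. Of the 6 numbered 4 or 5, 2 were higher in the diaphragm and 1 in the trachea, and of the 10 numbered 6 to 13, 8 were higher in the diaphragm and none in the trachea. *Hoxa3* had 105, 108, 91.0 and 119 TPM in the trachea and 41.4, 54.7, 47.7 and 37.1 TPM in the diaphragm (log2 fold change -0.93, SE 0.11, adjusted p = 0.000180, edgeR). *Hoxa2*, *Hoxb2* and *Hoxb3* were called at -0.66, -0.65 and -0.59, and each lost its call without at least 1 library. Without diaphragm replicate 4 or trachea replicate 1 or 4, 3 Hox genes were called higher in the trachea.

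The HoxC cluster lay almost wholly on the diaphragm side. *Hoxc4* averaged 48.2 ± 4.81 TPM in the diaphragm and 12 ± 3.48 TPM in the trachea, and *Hoxc5* 23.3 ± 2.99 and 1.43 ± 1.11 TPM. *Hoxc6* had 43.9, 42.0, 37.4 and 50.9 TPM against 1.26, 1.23, 0.180 and 0.212 TPM (log2 fold change 6.23, SE 0.50, adjusted p = 1.99e-05, edgeR). *Hoxc8* had 1.56 to 2.92 TPM in the diaphragm and 1 count in the trachea. In HoxA the direction turned within the cluster: *Hoxa4* was higher in the trachea (-0.99), *Hoxa5* was not called (-0.11, SE 0.15, adjusted p = 0.559), and *Hoxa6* and *Hoxa7* were higher in the diaphragm (3.10 and 4.78). *Hoxa5* itself, the gene whose loss the study addresses, had 60.6, 73.5, 94.7 and 60.1 TPM in the diaphragm and 103, 94.8, 76.3 and 109 TPM in the trachea, with overlap. Of the exon bases of *Hoxb2* and *Hoxb3*, 58.5% and 75.7% are shared with other annotated genes, and the strand setting of the counting is not given in the sources used here.

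**Figure D5:**
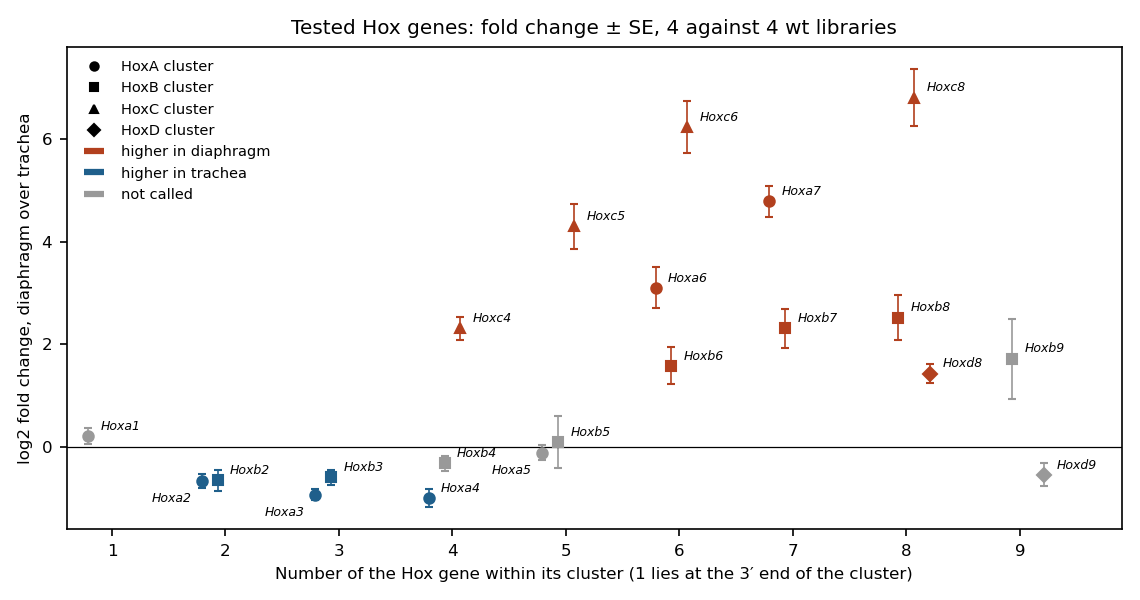
Log2 fold change (diaphragm over trachea, with SE) of the tested Hox genes by cluster and gene number. Genes numbered 1 to 3, which were tested in HoxA and HoxB, lie near or below 0 and the tested genes numbered 6 to 8 lie above it in all 4 clusters, and the *Hoxc8* value rests on 1 count in the trachea.

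T-box genes showed 1 member with a large difference each way. *Tbx15*, a regulator of some muscle and skeletal tissues, had 133, 133, 102 and 146 TPM in the diaphragm and 2.04, 0.812, 0.431 and 0.313 TPM in the trachea (log2 fold change 7.50, SE 0.44, adjusted p = 4.15e-06, edgeR). *Tbx20*, known from the heart, averaged 51.1 ± 9.60 TPM in the trachea and 0.928 ± 0.239 TPM in the diaphragm. *Tbx5* was also called higher in the trachea (-2.53). *Tbx4*, which with *Tbx5* acts in lung and tracheal mesenchyme, had 61.2 ± 8.66 TPM in the trachea and 3.45, 5.19, 44.0 and 3.35 TPM in the diaphragm, and was not called (-1.86, adjusted p = 0.0783). Without replicate 3 of both tissues its log2 fold change was -3.57 (adjusted p = 4.46e-06).

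Among hedgehog pathway genes, 7 of 15 were called higher in the trachea and 1 higher in the diaphragm. The ligand *Shh* had 24.6 to 36 TPM in the trachea and 1.03, 4.02, 9.58 and 0.0697 TPM in the diaphragm, a call lost without diaphragm replicate 1 or 2 or trachea replicate 1. The target genes *Gli1*, *Hhip* and *Ptch1* had log2 fold changes of -2.18, -3.24 and -0.92. The transducers *Gli2*, *Gli3*, *Smo* and *Sufu* were not called, with log2 fold changes of -0.16, -0.16, -0.25 and -0.27. The co-receptors differed: *Boc* was higher in the trachea (-1.18), *Gas1* higher in the diaphragm (1.27), and *Cdon* was not called (0.25).

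FGF pathway genes were called higher in the diaphragm in 7 of 15 cases and higher in the trachea in 3. The receptors went opposite ways. *Fgfr4*, the receptor of myoblasts, had 141 to 163 TPM in the diaphragm and 10.9 to 17.8 TPM in the trachea (log2 fold change 3.66, SE 0.14, adjusted p = 5.85e-07, edgeR). *Fgfr2*, the receptor of airway epithelium, had 4.93 to 14.2 TPM and 74.1 to 92.5 TPM (log2 fold change -2.81, SE 0.27). *Fgfr1* was not called (-0.10). Of the ligands, *Fgf9* and *Fgf7* were higher in the diaphragm (2.41 and 1.21) and *Fgf10* and *Fgf1* higher in the trachea (-0.98 and -0.90). The feedback inhibitors *Spry4*, *Spry1* and *Spry2* and the target *Etv5* were higher in the diaphragm, with log2 fold changes of 1.51, 0.79, 0.73 and 0.99.

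BMP pathway genes were mostly higher in the trachea, 10 of 15 against 1 in the diaphragm, with a median log2 fold change of -1.07. The targets *Id1*, *Id2*, *Id3* and *Smad6* had log2 fold changes of -1.10, -1.63, -0.72 and -1.30, and the ligands *Bmp2*, *Bmp5*, *Bmp6* and *Bmp7* of -1.77, -2.16, -1.24 and -1.07. *Bmp4* was not called (0.02). *Nog*, a secreted BMP antagonist, was the member higher in the diaphragm (1.48, SE 0.27, adjusted p = 0.00178, edgeR). Other regulators in the list did not go that way. *Bmper* and *Bambi* were called higher in the trachea, and *Grem1*, *Chrd* and *Fst* were not called.

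Of 17 Wnt pathway genes, 7 were called higher in the trachea, 1 (*Wnt2b*, 0.80) higher in the diaphragm and 9 were not called. *Wnt5a* and *Wnt7b*, a mesenchymal and an epithelial ligand, averaged 50.5 ± 9.16 and 47.4 ± 3.90 TPM in the trachea and 14 ± 0.363 and 5.24 ± 5.40 TPM in the diaphragm. *Dkk3*, *Notum* and *Rspo2* had log2 fold changes of -1.69, -1.59 and -1.24. *Axin2*, a general target, had 19.3 to 26.2 and 20.9 to 23.7 TPM and was not called. The calls of *Wnt4* and *Lef1* were each lost without some single libraries.

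In the retinoic acid pathway, 7 of 15 genes were higher in the trachea and 3 higher in the diaphragm. The genes of enzymes that make retinoic acid differed in direction. *Aldh1a1* was higher in the trachea (log2 fold change -3.50, SE 0.28) and *Aldh1a3* higher in the diaphragm (1.85, SE 0.16). *Aldh1a2* was higher in the diaphragm with overlap (1.17), a call lost without diaphragm replicate 1 or 2 or trachea replicate 1 or 4. The receptor *Rarg* averaged 142 ± 5.09 TPM in the trachea and 32.2 ± 5.40 TPM in the diaphragm, and *Rara* was not called (0.20). The binding protein gene *Crabp1* was higher in the trachea (-1.49) and *Crabp2* higher in the diaphragm (0.70), the latter call being lost without diaphragm replicate 2. Without that library, or with library totals, 1 gene of the list was called higher in the diaphragm.

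Genes of peripheral neurons were higher in the trachea, and some glial and precursor genes higher in the diaphragm. Of 14 genes, 8 were called higher in the trachea and 3 higher in the diaphragm. *Tubb3*, neuronal tubulin, had 161, 104, 78.5 and 142 TPM in the trachea and 11.4, 20.7, 7.54 and 11.2 TPM in the diaphragm (log2 fold change -2.96, SE 0.33, adjusted p = 0.000111, edgeR). *Prph*, *Stmn2* and the autonomic regulator *Phox2a* had log2 fold changes of -3.51, -3.04 and -3.02. *Ngfr*, *Foxd3* and *Erbb3* had log2 fold changes of 1.79, 1.94 and 0.88, and *Sox10* was not called (-0.36).

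Heart transcripts were a feature of all trachea libraries. Of 9 cardiac genes, 7 were called higher in the trachea and 2 higher in the diaphragm. *Myl7*, the atrial regulatory light chain, had 2883, 4001, 2377 and 4009 TPM in the trachea and 34.0, 57.1, 24.7 and 13.5 TPM in the diaphragm. *Myh6*, *Tnni3* and *Nkx2-5* averaged 800 ± 231, 251 ± 46.9 and 38.1 ± 10.7 TPM in the trachea and 67.9 ± 5.67, 3.33 ± 0.647 and 0.209 ± 0.202 TPM in the diaphragm. *Nppa* had 1.10 to 58.9 TPM in the trachea and 1 count in the diaphragm, and 61.5% of its exon bases are shared with another gene. *Myl2*, which slow skeletal fibres also use, and *Tnnt2* were higher in the diaphragm, with log2 fold changes of 4.09 and 0.91. The cardiac list summed to 3331 to 5906 TPM in the trachea and 431 to 565 TPM in the diaphragm. Sarcomere genes shared with heart, such as *Actc1* and *Myl4*, were measured in these same libraries, and the part of heart transcripts in their trachea level was not tested.

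Liver transcripts were a feature of all diaphragm libraries. All 10 hepatocyte genes were called higher in the diaphragm, with a median log2 fold change of 7.44 and a summed level of 1823 to 10285 TPM against 11.1 to 61.9 TPM. *Alb* had 902, 836, 4566 and 1051 TPM in the diaphragm and 26.9, 2.86, 8.39 and 5.23 TPM in the trachea. The list separated the organs in each library, with the highest diaphragm sum in replicate 3. By DESeq2, 6 of the 10 were called. Erythroid genes were called in 3 of 10 cases, all higher in the diaphragm, *Slc4a1* and *Alas2* among them, while the 7 globin genes were not called. Some of the globin genes are near-identical copies that can share reads. The erythroid sum was 30051 TPM in diaphragm replicate 3 and 8709 to 12154 TPM in the other diaphragm libraries. The *Alas2* call was lost without trachea replicate 1, 2 or 4.

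Macrophage genes were called higher in the diaphragm in 8 of 10 cases. *Csf1r*, *C1qb* and *Adgre1* averaged 43.0 ± 5.61, 120 ± 13.6 and 17.4 ± 1.40 TPM in the diaphragm and 25.2 ± 5.70, 67.7 ± 16.5 and 9.48 ± 1.95 TPM in the trachea. The log2 fold changes of the 8 genes lay between 0.73 and 1.17. Endothelial genes differed little on the TMM scale, with 12 of 14 not called and a median log2 fold change of -0.14. Their summed TPM did not overlap, at 511 to 664 in the diaphragm and 676 to 792 in the trachea. With library totals, 3 endothelial genes were called higher in the trachea. *Tek* was higher in the trachea (-1.01), and *Stab2*, which liver sinusoids also use, was higher in the diaphragm (2.15) with its highest value, 8.48 TPM, in replicate 3.

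Lists for other neighbouring organs were called in few members. Distal lung genes had 2 of 6 called, both higher in the trachea (*Abca3* and *Sftpd*), and each call was lost without some single libraries. The oesophagus list had 2 of 7 higher in the diaphragm (*Krt13* and *Pitx1*) and 1 higher in the trachea (*Barx1*). The *Pitx1* call was lost without diaphragm replicate 1 or 2 or any 1 trachea library. In the *Hoxa5*-/- libraries none of the list was called higher in the diaphragm and 4 were called higher in the trachea. In the thyroid, parathyroid and thymus list, *Tg* and *Pax8* were among the genes called higher in the trachea, and *Tshr* and *Cd3e* were called higher in the diaphragm. The *Tshr* call was lost without diaphragm replicate 1, 2 or 4 or trachea replicate 1, 2 or 4. The *Tg* and *Pax8* calls were lost without any 1 diaphragm library, and that of *Pax8* also without trachea replicate 3. Without that library the *Tg* log2 fold change was -1.24, where it was -6.93 with all 8 libraries.

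Of 16 cell cycle genes, none was called by edgeR or DESeq2, 6 had an unadjusted p under 0.05 by edgeR, and the log2 fold changes lay between 0.01 and 0.57. Without a fold minimum, 4 genes passed (*Ccna2*, *Pcna*, *Mcm2* and *Mcm6*), all slightly higher in the diaphragm. *Mki67* had 37.9 TPM in trachea replicate 1 and 191 to 239 TPM in the other 3 trachea libraries.

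In the *Hoxa5*-/- libraries, 7011 of 19592 genes (35.8%) were called between diaphragm and trachea. Of the 6412 wt calls, 6143 were tested in the mutants, 5308 were called the same way and 1 (*Dner*) the other way. The shared genes were 82.8% of the wt calls and 75.7% of the mutant calls. Of the 1437 wt calls at 8-fold or more, 1249 (86.9%) were called the same way in the mutants. Mutant trachea replicate 3 held muscle transcripts, with 1805 TPM of *Acta1* where the other 3 had 16.5 to 40.6, and mutant diaphragm replicate 3 held cartilage transcripts, with 242 TPM of *Col2a1* where the other 3 had 4.60 to 7.79. Without replicate 3 of both mutant tissues, 6846 genes were called, and 5155 of the wt calls were called the same way. The log2 fold changes of *Myog* and *Col2a1* were 8.19 and -6.88 in wt and 5.57 and -3.80 in the mutants with all 8 libraries.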

How the data were processed

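Counts per gene and TPM were made by the authors, who per the labels used Trim Galore 0.6.5, STAR 2.7.9a and featureCounts 2.0.3 on GRCm39. Both deposited tables, raw counts and TPM, were used as deposited. The strand setting of the counting is not given in the sources used here. Groups came from the sample labels.

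Raw counts of genes whose TPM averaged 1 or more in the diaphragm or the trachea were tested with edgeR 4.0.16, quasi-likelihood fit (limma 3.58.1, R 4.3.3) with TMM factors, on the 8 wt libraries without covariates. Adjusted p-values are Benjamini-Hochberg values over all genes tested. DESeq2 1.42.0 and other scalings, filters, libraries and a replicate block were alternatives. Fold changes use a prior count inside edgeR, and TPM values are given as deposited. Shares of isoform pairs were compared by exact two-sided permutation tests (scipy 1.17.1). Figures and tables used Python 3.11.15, numpy 2.4.6, pandas 2.3.3 and matplotlib 3.10.9. The edgeR test was also run on simulated counts with 200 changed genes, balanced between directions. That simulation does not cover a comparison with 32.5% of genes called, so it cannot test the scaling used here.

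The members and lists were chosen with earlier results of these data known. Named genes are list members, up to 8 of highest level per list and those going against their list, and outside the lists the 10 of highest level and the 10 of largest fold in each direction. Further list members, and genes that lost a call, were named after their values were seen. Counts limit precision: total counts per library were 23097464 to 39742853. Some list members are not reported here, although they enter the counts.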

Additional observations from a re-analysis of the deposited data

Results flagged for a closer look

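Summed levels of the lists and isoform shares were checked for a library far from the other 3 of its group in 94 groups of 4, where chance alone would mark about 1 in 20. Wt diaphragm replicate 3 stood apart in 6 list sums: hepatocyte (10285 TPM, others 1823 to 2218), erythroid (30051 TPM, others 8709 to 12154), distal lung (398 TPM, others 19 to 26.2), T-box (409 TPM, others 315 to 320), tendon (5460 TPM, others 7026 to 7104) and collagens (6510 TPM, others 7959 to 8065). Wt trachea replicate 3 stood apart for the thyroid, parathyroid and thymus list (468 TPM, others 2.91 to 4.18) and for distal lung (418 TPM, others 34.5 to 65.8). Wt trachea replicate 2 stood apart for tendon (6448 TPM, others 5312 to 5398). The *Tnnc2* share of *Tnnc2* and *Tnnc1* was 0.279% in wt diaphragm replicate 1 and 0.140 to 0.161% in the others.

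The tissue difference was compared between genotypes by an interaction term in edgeR over the 16 libraries, a test added after the data were seen. Of 20289 genes, 89 had an adjusted p under 0.05, and 150 without replicate 3 of each of the 4 groups, 62 of them shared. Of the 296 called list genes, 16 passed, of which 13 are reported, and each difference is given as *Hoxa5*-/- minus wt in log2 units with its adjusted p by edgeR. Among neural genes it was -3.27 for *Stmn2* (0.00367), -3.01 for *Tubb3* (0.00674), -2.61 for *Ret* (0.00915) and -2.24 for *Prph* (0.0276). Among smooth muscle genes it was -1.64 for *Mylk* (0.0133), -2.89 for *Cnn1* (0.0173) and -2.19 for *Myocd* (0.0251). Among epithelial and mesenchymal genes it was -5.98 for *Esrp1* (0.0165), -3.32 for *Tcf21* (0.0188), -4.33 for *Sox2* (0.0216), -5.29 for *Cldn4* (0.0316) and -4.62 for *Grhl2* (0.0335). For *Colq*, of the neuromuscular junction, it was -1.82 (0.0216). Without replicate 3 of each group, *Cldn4*, *Esrp1*, *Grhl2*, *Sox2* and *Tcf21*, of those reported, no longer passed, with adjusted p of 0.0573 to 0.0922, while their differences were -4.44, -5.26, -3.94, -4.79 and -2.89. That check kept wt diaphragm replicates 1 and 2, whose oesophagus list sums were 200 and 258 TPM. Wt diaphragm replicates 3 and 4 had 17.1 and 18.6 TPM, and the *Hoxa5*-/- diaphragm libraries 10.7 to 14.9 TPM. The part of other tissue in the genotype differences was not tested.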

How the results depend on the processing

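The 6412 calls became 9669 without a fold minimum, 4650 of them higher in the diaphragm against 2791, and leaving out 1 library gave 5889 to 6386. The other counts over all genes stayed within 1.5 times. In each list, the count of members called in the direction with more calls changed by more than 1.5 times in 43 of 576 alternatives. The count in the other direction did so in 44 of 576. Smaller changes of these counts were common and are not included. Without a fold minimum, 4 cell cycle genes (0 as reported), 2 endothelial genes (1) and 11 collagens (7) were higher in the diaphragm. With library totals, 3 collagens were higher in the diaphragm and 8 elastic fibre genes (5) higher in the trachea. DESeq2 called 6 hepatocyte genes (10), 1 erythroid gene (3) higher in the diaphragm and 0 thyroid genes (3) higher in the trachea. Requiring 10 counts in 4 libraries left 1 distal lung gene (2) higher in the trachea and 1 oesophagus gene (2) higher in the diaphragm, and a fit of all 32 libraries left 1 distal lung gene higher in the trachea.

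Leaving out 1 library at a time gave 3 to 6 mesothelial, 2 to 5 erythroid and 1 to 2 oesophagus genes higher in the diaphragm, and 2 to 4 T-box, 0 to 3 distal lung and 0 to 3 thyroid genes higher in the trachea. Without replicate 3 of both tissues, chosen after seeing the data, 6 erythroid genes were higher in the diaphragm, and 4 T-box, 1 distal lung and 1 thyroid gene higher in the trachea.

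The replicate numbers did not pair the samples: deviations of same-numbered libraries correlated at -0.0542 to 0.1018. With a replicate block, 6246 genes were called, and 7 erythroid genes and 1 oesophagus gene were higher in the diaphragm.

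In the *Hoxa5*-/- libraries, 4 T-box, 1 distal lung and 0 thyroid genes were called higher in the trachea, and 2 endothelial, 0 oesophagus and 1 cell cycle gene higher in the diaphragm. The endothelial and oesophagus lists there had 4 genes each higher in the trachea (1 each in wt). There, *Col15a1* (-0.06), *Gja5* (0.59), *Hoxb5* (-0.95), *Krt4* (-2.49) and *Prg4* (-1.24) had the opposite sign, as had the *Slc25a4* share (-1.97 percentage points). The causes were not tested.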

Other observations

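Embryo sex differed between libraries of a group. *Xist*, made by female cells, had 379 TPM in diaphragm replicate 2 and 312 and 673 TPM in trachea replicates 1 and 4, and at most 1.07 TPM in the other 5 wt libraries. *Xist* was not called between the tissues (adjusted p = 0.727, edgeR).

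Of the smooth muscle genes not called in wt, *Myh11* and *Actg2* were far lower in the mutant diaphragm libraries. *Myh11* had 2.81 to 5.43 TPM in the 4 *Hoxa5*-/- diaphragm libraries and 39.1 to 156 TPM in the 4 wt ones, and *Actg2* 3.73 to 13.6 and 82.3 to 332 TPM. The change of their tissue difference passed the interaction test also without replicate 3 of each group (-4.25 and -4.11 in log2 units, adjusted p = 0.00364 and 0.0119, edgeR). Wt diaphragm replicates 1 and 2, which held the most *Krt13*, had the most *Myh11* and *Actg2*; the part of other tissue in these levels was not tested.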
